A study of Mus musculus with 6 samples.

Results

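The MYC and MAX network is described here through 10 genes, chosen by name and not by their values: Myc, Mycn, Mycl, Max, Mxd1, Mxd4, Mxi1, Mnt, Mlx and Mga. They are 10 of the 52636 genes in the deposited table, and each was matched by its Ensembl identifier to the mm10 annotation. Of the 10, 9 had a count in at least 1 library and the same 9 passed the filter on low counts, beside 12284 genes in all. Mycn had no count in any library and was not tested. RNA from 2 cultured mouse mammary tumour lines was sequenced from its 3′ ends, in 3 biological replicates each. The J110 line came from mice with an MMTV LTR transgene for AIB1 cDNA, and the SSM3 line from mammary tumours of 129SvEv mice. Neither line was treated, both were grown with insulin and hydrocortisone to the same range of confluency, and SSM3 cells received more serum and carbon dioxide, with transferrin and β-mercaptoethanol added. Each line stands for a single tumour background, so the line, the strain and the culture conditions cannot be told apart, and the replicates measure the spread between cultures of 1 line.

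MYC proteins are transcription factors of the basic helix-loop-helix leucine zipper class, which bind E-box DNA as dimers with MAX. The MXD proteins (MXD1, MXD4 and MXI1) and MNT compete for MAX and bring the SIN3 corepressor to the same sites, while MGA joins MAX to a Polycomb-type repressor complex. MLX is a second hub, which pairs with MondoA (gene Mlxip), ChREBP (gene Mlxipl), MNT and some MXD proteins. In mammary epithelium Myc is known as an estrogen-induced gene, and its amplification is frequent in breast cancer.

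Total counts ranged from 4200785 to 5416305 per library, and a count of 3, taken as the floor, corresponded to between 0.578 and 0.668 CPM (the count relative to the library total after TMM scaling). Such limits cover counting error only. The ribosomal RNA locus took from 15.1% to 17.2% of the counts in J110 and from 0.779% to 1.27% in SSM3, and with it left out of the library sizes the same number of members, 7, was called. Ncoa3, which encodes AIB1, was counted 110, 106 and 102 times in libraries labelled J110 against 181, 199 and 186 times in those labelled SSM3. The sources used here do not say whether 3′ tags of the AIB1 cDNA would be counted on this gene, and Ncoa3 shares exon bases with Sulf2 on the opposite strand. Which line a library came from, and so each direction below, rests on the labels, and J110 and SSM3 stand for libraries so labelled. Of the 5 epithelial markers, Epcam and Cdh1 were low in J110 (means of 0.681 and 4.02 CPM) beside SSM3 (506.5 and 1374 CPM), while Krt8 and Krt18 were abundant in both lines. The summed CPM of the epithelial markers ran from 2677 to 2766 in J110 and from 11880 to 13070 in SSM3. The largest part of this difference lay in Krt19, whose J110 mean was 18.6 CPM beside an SSM3 mean of 7412 CPM. Krt8 was higher in SSM3 (mean 2270 beside 1275 CPM), whereas Krt18 was lower there (mean 970 beside 1430 CPM). Among 5 leukocyte markers 4 had at most 3 counts in every library, with Cd68 as the exception at 18.5 ± 3.79 in J110 against 1.42 ± 0.510 CPM in SSM3 (SD, n = 3 each). The 7 fibroblast markers summed to between 4960 and 5458 CPM in J110 and between 1339 and 1487 CPM in SSM3, with Vim at 5140 ± 273 against 9.61 ± 8.04 CPM and Dcn at 0.901 ± 1.39 against 1412 ± 72.4 CPM (SD, n = 3 each), while Col1a2 and Lum had no count. Of 5 endothelial markers Tie1 had no count and Cdh5 had a mean of 165 CPM in J110. The part of these markers in the differences below was not tested.

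The lines differed in the MYC family genes counted. Myc was counted in both lines and was 3.95-fold lower in SSM3, Mycl was counted in SSM3 alone above the floor, and Mycn was counted in neither. Of the 9 members tested, 3 were higher in SSM3 (Mycl, Mxd4 and Mxi1), 4 were lower (Myc, Mnt, Mlx and Mga), and Max and Mxd1 did not pass the test. Reads of Mxd4 and Mlx cannot be told apart from those of opposite-strand genes, as described below. The share called, 7 of 9 (77.8%), lay beside 77.9% of all genes tested, with 38.6% of all genes higher and 39.2% lower, so the number of calls does not set the network apart from other genes. Mycl passed the filter through SSM3 alone. With at least 10 counts asked of every library Mycl was not tested, and 6 of 8 members were called, beside 7288 of 9686 genes. The 3 libraries of a line did not overlap those of the other for 7 of 9 members, beside 79.6% of all genes tested, with SSM3 above for 3 members (39.4% of all genes) and below for 4 (40.3%). The median log2 fold change of the tested members was -0.089, and that of all genes tested was -0.014. In bulk RNA, fewer cells of a type and less RNA per cell cannot be told apart.

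**Figure D1:**
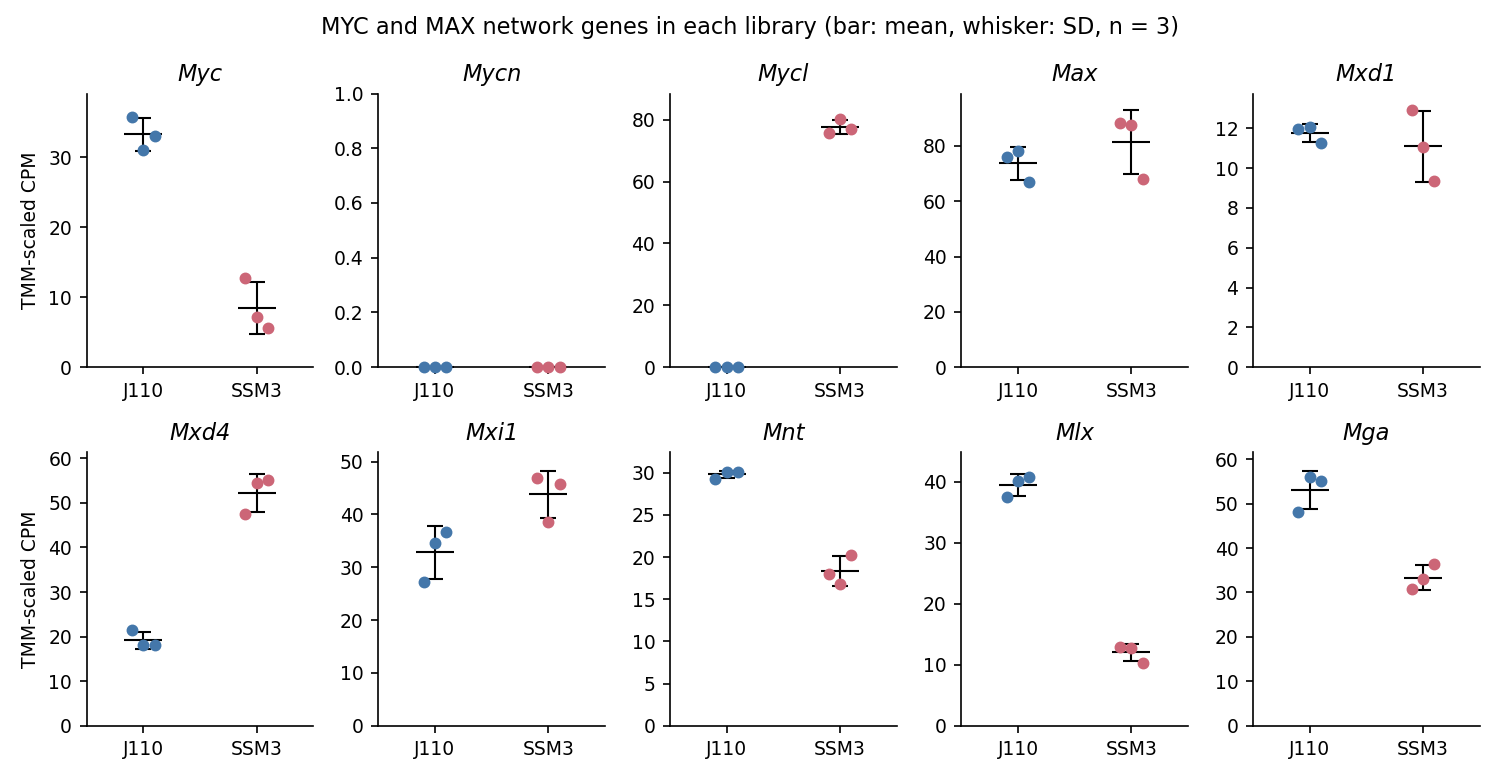
TMM-scaled CPM (vertical axis, starting at 0, its range set for each gene) of the 10 network genes in each of 3 J110 and 3 SSM3 libraries, with the mean and SD. Myc lay between 31.1 and 35.7 CPM in J110 and between 5.57 and 12.7 CPM in SSM3, and Mycl between 0 and 0.209 CPM in J110 and between 75.7 and 80.3 CPM in SSM3.

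Myc (ENSMUSG00000022346, chromosome 15 of mm10 from 61985391 to 61990374, forward strand) encodes c-MYC, the family member expressed in most dividing cells. It had 185, 157 and 158 counts in the J110 libraries against 57, 34 and 28 in those of SSM3. All J110 libraries lay above all SSM3 libraries, and replicate 1 was the highest of the SSM3 libraries. Mean levels were 33.2 ± 2.32 in J110 against 8.49 ± 3.73 CPM in SSM3 (SD, n = 3 each). The log2 fold change, SSM3 against J110, was -1.98 (standard error, SE, 0.21), with an edgeR adjusted p of 2.19e-07. The value was -2.37 without SSM3 replicate 1 and -1.74 without SSM3 replicate 3, with those for the other libraries left out between them.

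Mycl (ENSMUSG00000028654, chromosome 4 from 122995652 to 123002485, forward strand) encodes L-MYC, a family member first known from small cell lung cancer. Its J110 libraries held 0, 0 and 1 counts and its SSM3 libraries 340, 378 and 387. The single count in J110 fell in replicate 3. J110 was thus at the floor in every library. SSM3, at 77.7 ± 2.35 CPM (SD, n = 3), was at least 124-fold higher than the highest floor of a J110 library. Mycl passed the filter on low counts through SSM3 alone, so its call adds no support beyond these counts. Mycn (ENSMUSG00000037169, chromosome 12 from 12936093 to 12941914, reverse strand), which encodes the neural family member N-MYC, had 0 counts in all 6 libraries, so a level below the floor was not detectable.

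Counted together, the 3 MYC family genes held 35.7, 31.1 and 33.2 CPM in J110 and 88.4, 87.5 and 82.6 CPM in SSM3. Mycl made up 85.6%, 91.8% and 93.3% of the family's counts in the SSM3 libraries and at most 0.629% in a J110 library. The lower Myc count in SSM3 thus stood beside a higher summed count of the family. These sums and the shares below are descriptions without a test, since the members were chosen as a set. Reads of a 3′ library come from the end of each transcript, so counts were not divided by gene length, and levels are compared between lines and not between genes.

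Max (ENSMUSG00000059436, chromosome 12 from 76937269 to 76962201, reverse strand), the shared dimer partner, had 394, 396 and 321 counts in the J110 libraries against 397, 413 and 342 in those of SSM3. The libraries of the lines overlapped, with replicate 3 the lowest of each. The means were 73.8 ± 5.98 and 81.4 ± 11.6 CPM (SD, n = 3 each), and the log2 fold change was 0.14 (95% interval from -0.089 to 0.37, adjusted p = 0.246). The call depended on the scaling and on 1 library, since library size without TMM gave 0.31 (adjusted p = 0.0188) and leaving out SSM3 replicate 3 gave 0.26 (adjusted p = 0.0197). Of the counts on all 10 members Max held 25.2% ± 1.94 in J110 against 24.0% ± 2.81 in SSM3 (SD, n = 3 each).

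The MXD and MNT genes, which encode the repressive partners of MAX, did not move together. Mxd4 and Mxi1 were higher in SSM3, Mnt was lower, and Mxd1 overlapped between the lines. Mxd4 (ENSMUSG00000037235, chromosome 5 from 34173883 to 34187720, reverse strand) encodes MXD4, also called MAD4, and had 111, 91 and 87 counts in the J110 libraries against 213, 256 and 277 in those of SSM3. Every SSM3 library was above every J110 library, at 52.3 ± 4.24 against 19.2 ± 1.92 CPM (SD, n = 3 each), 2.72-fold higher (log2 scale 1.45, SE 0.12 and adjusted p = 1.40e-08). Mxd4 shares 514 exon bases with Gm42846 on the opposite strand, which had from 46 to 62 counts in J110 and from 114 to 161 in SSM3. Since the strand setting of the counting is not given in the sources used here, reads of these 2 genes cannot be told apart.

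Mxi1 (ENSMUSG00000025025, chromosome 19 from 53310518 to 53375810, forward strand) encodes the MAX interactor MXI1, and had 141, 175 and 176 counts in the J110 libraries against 211, 182 and 230 in those of SSM3. In CPM the lowest SSM3 library (38.6) was just above the highest J110 library (36.7). The log2 fold change was 0.42 (SE 0.13 and adjusted p = 0.00738). Without J110 replicate 1, the lowest of all libraries, it was 0.28 and no longer passed the test (adjusted p = 0.0631; the other alternatives gave adjusted p between 0.000429 and 0.917).

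Mnt (ENSMUSG00000000282, chromosome 11 from 74830920 to 74845725, forward strand) encodes the broadly expressed MAX partner MNT, and had 152, 152 and 144 counts in the J110 libraries against 81, 79 and 102 in those of SSM3. The lines did not overlap, at 29.8 ± 0.435 and 18.4 ± 1.78 CPM (SD, n = 3 each). The log2 fold change was -0.70 (SE 0.13 and adjusted p = 0.000153). Mxd1 (ENSMUSG00000001156, chromosome 6 from 86647042 to 86669161, reverse strand), whose product MXD1 (MAD1) is known from differentiating cells, had 62, 61 and 54 counts in the J110 libraries against 58, 52 and 47 in those of SSM3. The libraries overlapped, and the log2 fold change of -0.089 had a 95% interval from -0.48 to 0.30 (adjusted p = 0.667). The sign of the Mxd1 value turned with library size only, without TMM (0.087), and without SSM3 replicate 3 (0.026).

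**Figure D2:**
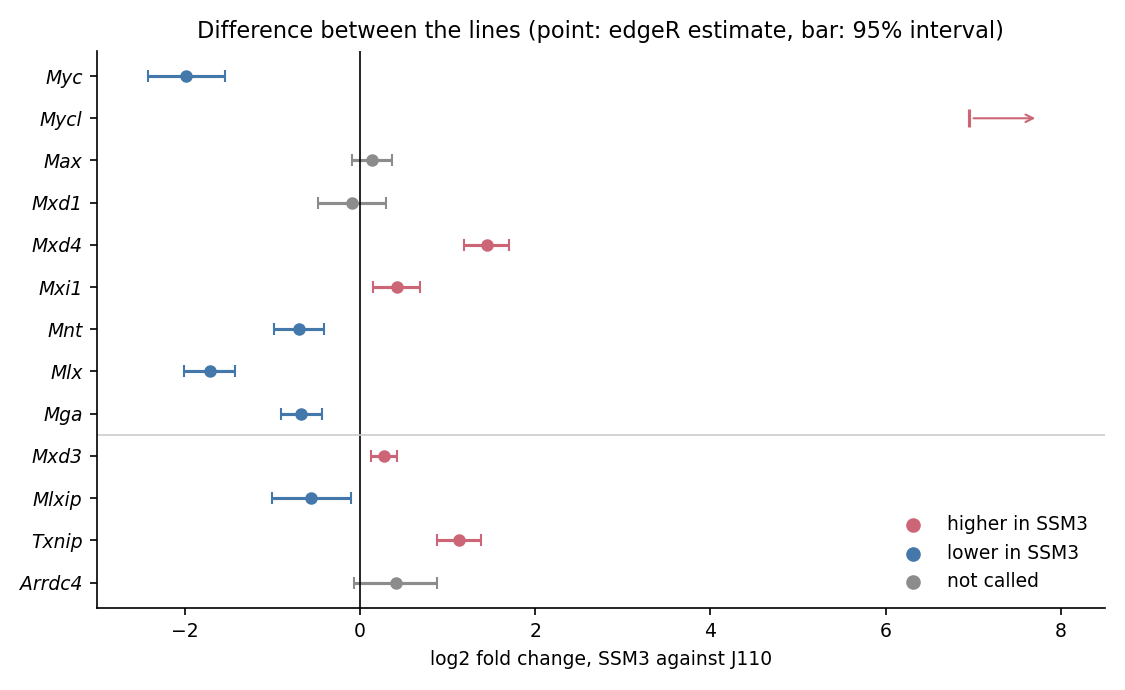
Log2 fold change of SSM3 against J110 (horizontal axis) for the 9 tested network genes, above the grey line, and for Mxd3, Mlxip, Txnip and Arrdc4 below it, with 95% intervals and colours for the call. Myc (-1.98) and Mlx (-1.72) lay farthest below 0, and Mycl is drawn at its lower bound of 6.96 with an arrow, since J110 was at the floor. Reads of Mlx cannot be told apart from those of Psmc3ip.

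Counts were lower in SSM3 on Mlx, the hub of the parallel network, and on Mga, which joins MAX to a repressor complex. Mlx (ENSMUSG00000017801, chromosome 11 from 101087277 to 101092207, forward strand), whose product pairs with MondoA, had 194, 203 and 195 counts in the J110 libraries against 58, 60 and 52 in those of SSM3. Its means were 39.4 ± 1.77 and 12.0 ± 1.44 CPM (SD, n = 3 each), with no overlap, and SSM3 was 3.29-fold lower (-1.72 on the log2 scale, SE 0.14 and adjusted p = 8.23e-09). Neither the value nor a direction can be read for Mlx itself, because Mlx shares 385 exon bases with Psmc3ip on the opposite strand. Psmc3ip had 208, 214 and 190 counts in the J110 libraries against 40, 45 and 15 in those of SSM3, close to those of Mlx in J110, and reads of the pair cannot be told apart without strand. Mga (ENSMUSG00000033943, chromosome 2 from 119897228 to 119969581, forward strand), which carries a T-box domain as well, had 250, 283 and 264 counts in the J110 libraries against 138, 155 and 183 in those of SSM3. No SSM3 library reached a J110 library, and the log2 fold change was -0.67 (SE 0.11 and adjusted p = 3.22e-05).

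The counts on the 10 members of each library were also divided among them as shares. The MYC family took 11.4% ± 1.04 in J110 against 25.5% ± 0.235 in SSM3 (SD, n = 3 each). The summed share of Mxd1, Mxd4, Mxi1 and Mnt was 31.9% ± 0.878 and 37.1% ± 2.36 (SD, n = 3 each), with Mxd4 at 6.56% and 15.5% and Mnt at 10.2% and 5.44%. Mga had mean shares of 18.1% in J110 and 9.87% in SSM3, and Mlx of 13.4% and 3.54%. The MYC family's summed CPM, divided by that of Mxd1, Mxd4, Mxi1 and Mnt, was 0.397, 0.328 and 0.345 in J110. In SSM3 this ratio was 0.705, 0.724 and 0.633, without overlap. Mxd3, not among the 10, had means of 442 CPM in J110 and 534 CPM in SSM3 and is left out of the ratio. Reads of Mxd4, which is in the ratio, cannot be told apart from those of Gm42846.

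**Figure D3:**
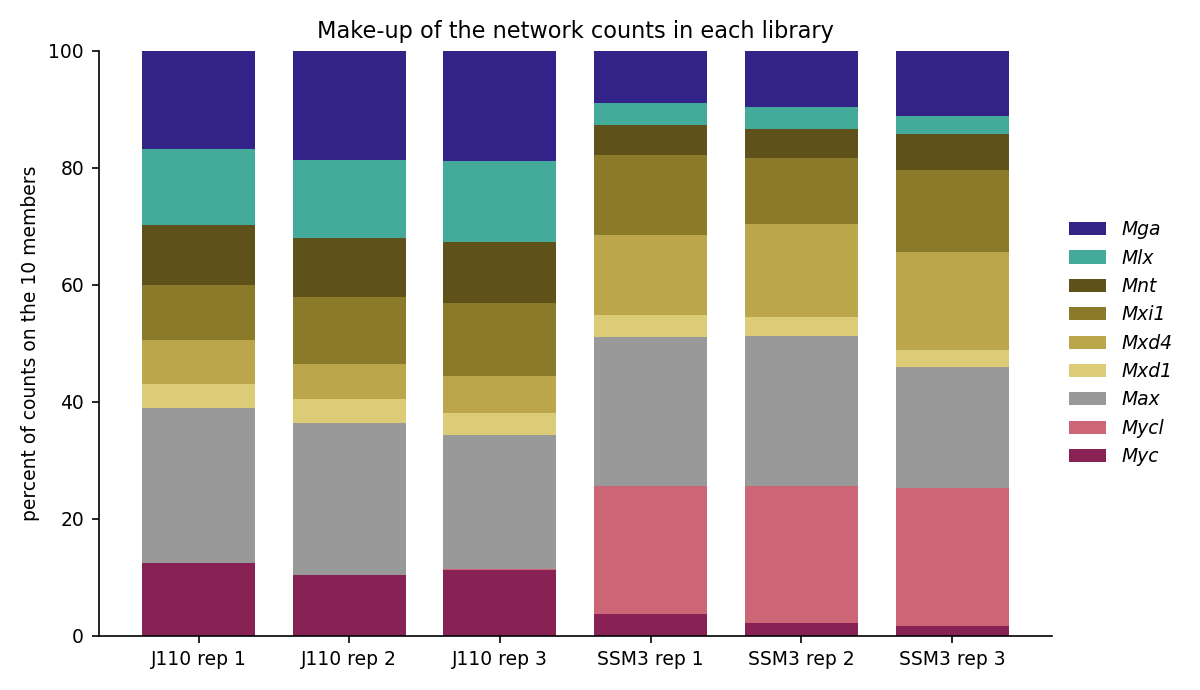
Percent of the counts on the 10 network genes (vertical axis, from 0 to 100) held by each gene in each of the 6 libraries, as stacked bars. Mycl held from 21.9% to 23.5% in SSM3 libraries and at most 0.0714% in J110 libraries, while Max held from 20.8% to 26.5% in all of them; Mycn had no count.

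The genes of the network that were not among the 10 are Mxd3, Mlxip and Mlxipl. Mlxip, which encodes the MLX partner MondoA, had 60, 48 and 61 counts in the J110 libraries against 27, 39 and 43 in those of SSM3, without overlap and with a log2 fold change of -0.56 (SE 0.21 and adjusted p = 0.0254). That call was lost with DESeq2 (adjusted p = 0.0697), with library size only (0.111), with thinned counts (0.111), and without J110 replicate 1, J110 replicate 3 or SSM3 replicate 1 (0.0587, 0.0849 and 0.0978). Mlxipl, the gene of ChREBP, had no count. Mxd3 had 2114, 2325 and 2192 counts in the J110 libraries against 2289, 2527 and 2791 in those of SSM3 (log2 fold change 0.27, SE 0.071 and adjusted p = 0.00224), but it shares 105 exon bases with Prelid1 on the opposite strand, and its counts were 87.7% of those of Prelid1. No direction for Mxd3 itself can be read from this value. Txnip and Arrdc4, arrestin-domain genes known as targets of MondoA and MLX, were 2.19-fold higher in SSM3 (log2 fold change 1.13, SE 0.12 and adjusted p = 2.20e-07) and not called (0.41, 95% interval from -0.070 to 0.88, adjusted p = 0.109). Txnip had 211, 188 and 173 counts in the J110 libraries against 453, 356 and 373 in those of SSM3, while the counts of Arrdc4 (43, 51 and 40 against 40, 50 and 79) overlapped.

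Promoter sequences bear on the network because its dimers bind the E-box CACGTG, which reads the same on both strands. The RefSeq windows of GRCm38.p6, from 250 bases before to 50 bases after a gene's start, covered 9 of the 10 members, all but Myc. CACGTG was found in the windows of Max, Mxd4, Mnt and Mlx, 4 of 9, where 2187 of 27025 genes with a window (8.09%) held it. The 27025 genes include many that were not tested here, so 8.09% is not the share of expressed genes. A match is a string of letters and not a measured binding site. The 4 stretches are shown with the E-box in capitals, since these members carry the network's own motif. Their counts went in different directions, with Mxd4 higher, Mnt and Mlx lower and Max not called. Mxd4 and Mlx share exons with other genes, as given above. The E-box starts at position -3 from the start site in Max, -219 in Mxd4, -123 in Mnt and -40 in Mlx. They lie at chr12:76962246-76962278 (reverse strand), chr5:34187897-34187956 (reverse strand), chr11:74830774-74830833 (forward strand) and chr11:101087223-101087282 (forward strand). The 250 bases before the start of Mycl, chr4:122995681-122995930 (forward strand), are shown too, as the member that was at the floor in J110 and counted in every SSM3 library. The RefSeq start of Mycl lies after the first base of the gene in the annotation used for the counts, so these bases fall inside the gene coordinates given above. They hold no CACGTG.
Max: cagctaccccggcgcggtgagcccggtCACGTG
Mxd4: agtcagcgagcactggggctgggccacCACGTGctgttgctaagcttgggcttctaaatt
Mnt: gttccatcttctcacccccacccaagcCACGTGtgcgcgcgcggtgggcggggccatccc
Mlx: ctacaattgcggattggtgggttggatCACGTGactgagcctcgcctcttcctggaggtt
Mycl: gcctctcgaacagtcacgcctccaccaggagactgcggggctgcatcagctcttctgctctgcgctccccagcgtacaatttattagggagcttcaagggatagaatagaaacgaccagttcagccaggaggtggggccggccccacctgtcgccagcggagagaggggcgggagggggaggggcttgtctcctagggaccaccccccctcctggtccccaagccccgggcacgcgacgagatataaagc

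Genes around the members were read as a description of position, with distances taken between the lower coordinates of the genes. Within 500 kb of Myc, 1 other gene was tested, the noncoding Pvt1, which was lower in SSM3 (log2 fold change -0.36, adjusted p = 0.0484), and on the other side the nearest tested gene, Fam84b, lay 1166 kb away and was also lower (-0.59). Near Mycl 9 genes were tested, with 4 higher, 2 lower and 3 not called in SSM3. Its nearest neighbours on both sides were higher in SSM3. 4933421A08Rik was at 0.198 ± 0.193 CPM, under the floor, in J110 against 12.0 ± 0.830 CPM in SSM3 (SD, n = 3 each). It passed the filter on low counts through SSM3, so its call adds no support beyond these levels. The tRNA-modifying enzyme gene Trit1 had a log2 fold change of 1.45 (SE 0.16 and edgeR adjusted p = 3.10e-07). Around Mycn, 2 genes were tested and both were lower in SSM3, the nearer being the helicase gene Ddx1 (-0.66).

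Members and their nearest neighbours did not always move alike. Next to Max, which was not called, Rab15 was higher in SSM3 (log2 fold change 5.77) and 9530018F02Rik lower (-1.42), and next to Mxd1 1600020E01Rik was higher (0.93). Beside Mxd4, Haus3 was lower (-1.43), while the antisense gene Gm42846 was higher (1.42). Beside Mxi1, Smndc1 was lower (-0.41). Beside Mnt, Mettl16 was lower (-0.43) and Sgsm2 higher (1.64). Beside Mlx, Coasy was higher (1.77) and Psmc3ip lower (-2.52), and both neighbours of Mga, Tyro3 (0.67) and Mapkbp1 (2.09), were higher. Within 500 kb, 23 of 35 tested genes were higher and 4 lower in SSM3 near Mlx, and 14 of 17 higher and 1 lower near Mga, beside 38.6% of all genes higher and 39.2% lower. Near Mxd4 4 were higher and 10 lower of 14, near Mxi1 2 and 4 of 7, near Mxd1 11 and 4 of 20, near Mnt 7 and 4 of 11, and near Max 5 and 2 of 7.

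The cofactors of MYC came next. Of 12 genes for MYC coactivators and chromatin partners 6 were higher and 2 lower in SSM3, with a median log2 fold change of 0.36. The share called was 66.7%, beside 77.9% of all genes (38.6% higher and 39.2% lower). With library size only the split was 8 higher and 1 lower, beside 5373 higher and 4140 lower of all 12284 genes. Actl6a, a subunit shared by chromatin remodelling and acetyltransferase complexes, was higher in SSM3 (log2 fold change 1.11), from 91.8 ± 1.83 to 199 ± 11.3 CPM (SD, n = 3 each). Kat5, the acetyltransferase TIP60, had a log2 fold change of 0.94 (SE 0.17 and adjusted p = 7.82e-05). Actl6a shares exons with Mrpl47 and Kat5 with Rnaseh2c, both genes with more counts, so these values are uncertain. Ep400, the ATPase of the TIP60 complex, was lower in SSM3 (log2 fold change -0.97, adjusted p = 2.34e-08). The scaffold Trrap was not called, at 33.2 and 37.4 CPM.

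Of 10 genes for the SIN3 complex, the corepressor that MXD proteins and MNT recruit, 4 were higher and 4 lower in SSM3 (median -0.13), so 8 of 10 were called, beside 77.9% of all genes. Ing1, a histone-binding subunit, was 2.39-fold higher, from 162 ± 8.52 to 386 ± 17.1 CPM (SD, n = 3 each), and Sin3b, a scaffold of the complex, 2.01-fold higher (SE 0.085 on the log2 scale, adjusted p = 1.55e-08). Its paralogue Sin3a, which shares exon bases with Man2c1os on the opposite strand, was not called (log2 fold change -0.28, adjusted p = 0.0697). Sap30 was lower, with a log2 fold change of -0.80 from 39, 33 and 30 to 20, 24 and 11 counts (adjusted p = 0.0187), a call lost without J110 replicate 1 (0.0639) and without SSM3 replicate 3 (0.117), with DESeq2 (0.0547) and with library size only (0.0629).

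Among 9 partners of MGA in its Polycomb-type complex 3 were higher and 4 lower in SSM3 (median 0.040), or 77.8% called beside 77.9% of all genes. Yaf2, a RING1-binding subunit, had 348, 342 and 346 counts in the J110 libraries against 79, 78 and 75 in those of SSM3, which is 4.22-fold lower (log2 fold change -2.08, SE 0.11 and adjusted p = 4.05e-11). E2f6, the DNA-binding subunit, was 3.17-fold lower, at 37.0 ± 2.35 and 11.8 ± 4.77 CPM (SD, n = 3 each). Ring1, an E3 ligase of the complex, was higher (log2 fold change 0.89, adjusted p = 0.00362), as was Rybp (0.43, adjusted p = 0.0360), the relative of Yaf2. The Rybp value rested on SSM3 replicate 1, which had 244 counts beside 143 and 166, and without that library it was 0.13 (adjusted p = 0.362); the call was also lost without any 1 of the J110 libraries and with limma-voom.

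Of 12 genes that control the stability of the MYC protein 8 were lower and 2 higher in SSM3 (median -0.39), a share called of 83.3% beside 77.9% of all genes, with 39.2% of all genes lower. With library size only, without TMM, 6 were lower and 4 higher, beside 4140 lower and 5373 higher of all 12284 genes. Usp28, a deubiquitinase that stabilises MYC, had 53, 39 and 40 counts in the J110 libraries against 4, 15 and 12 in those of SSM3 (95% interval of the log2 fold change from -2.68 to -1.31, adjusted p = 2.85e-05). Cip2a, an inhibitor of the phosphatase that acts on MYC, was 2.31-fold lower (adjusted p = 9.53e-09), and Fbxw7, the ubiquitin ligase subunit that marks MYC for degradation, 1.54-fold lower (log2 fold change -0.62, adjusted p = 0.000172). Both promoters and opponents of MYC degradation were thus among the genes that fell. The genes that rose were Aurka, a kinase that binds N-MYC, by 0.40 on the log2 scale (adjusted p = 0.000455), and Skp2, a ubiquitin ligase subunit, by 0.44 (adjusted p = 0.0158), a call that was lost without J110 replicate 1, J110 replicate 2, SSM3 replicate 1 or SSM3 replicate 2 (adjusted p from 0.0532 to 0.0721).

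Of 32 genes commonly described as activated by MYC, 10 were higher and 13 lower in SSM3 and 9 did not pass the test. The share called was 71.9%, beside 77.9% of all genes, and the median log2 fold change was -0.0094, beside -0.014. The direction of the split depended on the scaling, since library size without TMM gave 16 higher and 11 lower. All genes moved with it, to 5373 higher and 4140 lower of 12284. Nop16, a nucleolar ribosome assembly factor, had 218, 241 and 207 counts in the J110 libraries against 746, 873 and 981 in those of SSM3, which is 4.11-fold higher (log2 fold change 2.04, SE 0.094 and adjusted p = 5.77e-12). Tmem97, a sterol-regulated membrane protein, was 2.39-fold higher. Tfb2m, a mitochondrial transcription factor, was 3.99-fold lower (adjusted p = 9.79e-05) at 32, 24 and 17 against 7, 5 and 5 counts, and Hk2, the glycolytic hexokinase, was 2.52-fold lower, from 100.1 ± 7.18 to 39.8 ± 2.99 CPM (SD, n = 3 each). CACGTG was found in the promoter windows of 9 of the 26 genes of the list that had one (34.6%), beside 8.09% of all genes with a window, tested or not. Among them were 5 of 9 that were higher and 2 of 10 that were lower in SSM3. The shares for all higher and all lower genes were not computed. It was found for 1 of 11 coactivators, 1 of 9 corepressors, 1 of 7 MGA partners, 2 of 11 turnover genes and 0 of 6 repressed genes with a window.

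Genes described as repressed by MYC were called in all 6 cases tested of 8 listed, 4 higher and 2 lower in SSM3, beside 77.9% of all genes called, with a median log2 fold change of 0.88. Cdkn2b and Cebpa passed the filter on low counts through SSM3, and with at least 10 counts asked of every library 4 genes were tested, 2 higher and 2 lower. Without Cdkn2b and Cebpa the median of the list lay below 0. Cdkn2b, a CDK inhibitor that MYC represses through MIZ1, had no count in J110 and 40, 28 and 19 counts in SSM3, at least 9.92-fold higher than the highest floor of a J110 library. Cebpa, a differentiation factor, rose from 2.01 ± 0.769 to 90.7 ± 6.77 CPM (SD, n = 3 each), or 5.49 on the log2 scale. Ndrg1, a stress-response gene, was 2.18-fold lower (log2 fold change -1.12, SE 0.15 and adjusted p = 3.56e-06), as was the p53 target Cdkn1a, 1.93-fold (adjusted p = 5.63e-08). Cdkn1c was at the floor in both lines and Gas1 had no count.

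**Figure D4:**
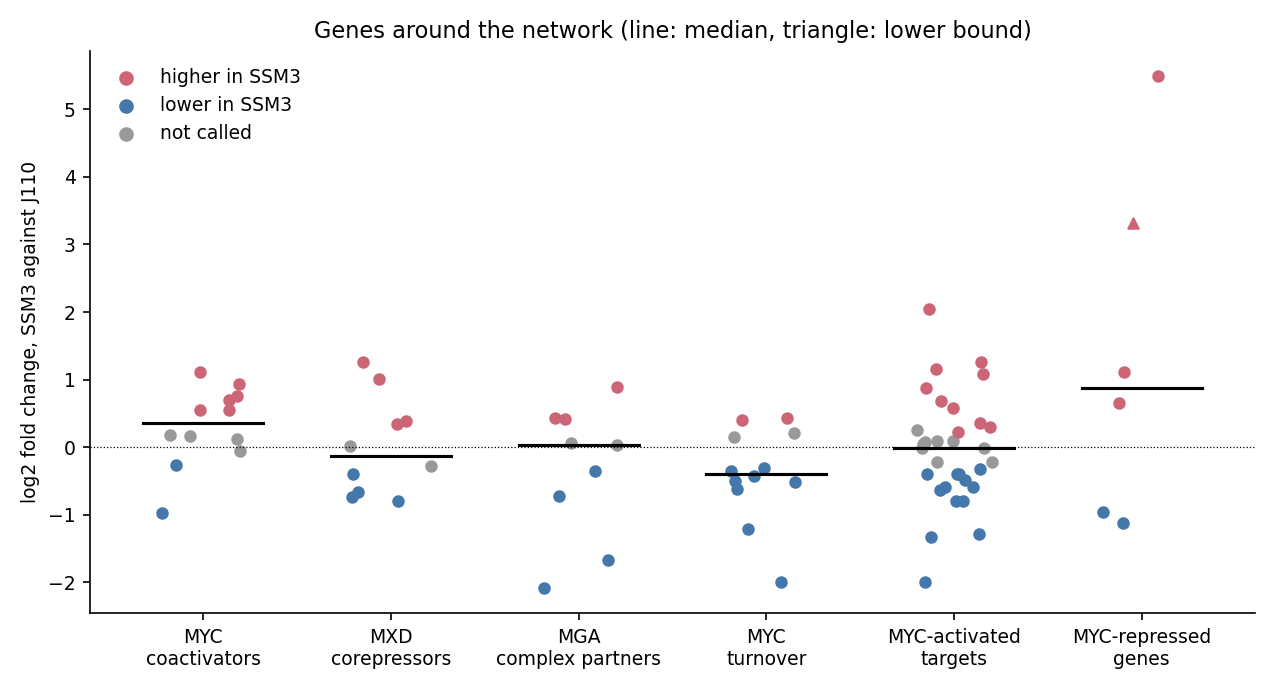
Log2 fold change of SSM3 against J110 (vertical axis) for each tested gene of 6 lists of genes around the network, coloured by the call, with the median as a line and Cdkn2b as a triangle at its lower bound. The MYC-activated targets reached from Tfb2m (3.99-fold lower) to Nop16 (4.11-fold higher) around a median of -0.0094, and those of MYC turnover had a median of -0.39.

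The genes whose profile over the 6 libraries was nearest to that of Myc were found among 9062 others with a mean of at least 10 CPM, by the Euclidean distance between log2 CPM profiles centred on their means. The nearest was Acvr1, a receptor kinase of the BMP pathway, at a distance of 0.300, with 287, 271 and 246 counts in the J110 libraries against 79, 59 and 40 in those of SSM3. Cblb, a ubiquitin ligase (0.412), the mannosidase gene Man2a1 (0.421), Cited2, a transcriptional coregulator (0.424), and Ints8, of the Integrator complex (0.429), followed. Their log2 fold changes lay between -2.17 and -1.96, a likeness to Myc that the choice of these genes by profile sets.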

How the data were processed

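RNA of 3 J110 and 3 SSM3 cultures was made into QuantSeq 3′ libraries and read as single ends. The authors trimmed reads with cutadapt (2.1), mapped them to mm10 with HISAT2 (2.0.4), counted them per gene with featureCounts of Subread (2.0.0) and deposited raw counts, without normalisation; versions are from the submitters' processing notes. The strand setting and the treatment of reads that overlap several genes are not given in the sources used here. Groups came from the sample titles, and all 6 libraries were used. Of 52636 identifiers 52489 (99.7%) matched GENCODE M21 (GRCm38).

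Low counts were removed by filterByExpr, TMM factors set the scale, and the lines were compared by edgeR's quasi-likelihood test (edgeR 4.0.16, limma 3.58.1, R 4.3.3), with Benjamini-Hochberg adjustment over all 12284 genes tested and a threshold of 0.05. The standard error was the log2 fold change divided by the square root of F. A line was at the floor for a gene when none of its libraries exceeded 3 counts. Replicates of a line differed by more than sampling noise (chi-square per degree of freedom from 2.21 to 5.62). In counts simulated for 12284 genes, 200 were changed, and all genes shared 1 dispersion (a coefficient of variation of 8.3%). With 11986 tested, 89 of 100 genes changed 2-fold and 100 of 100 changed 4-fold were recovered, and 13 of 202 calls were false. In the data 77.9% of genes were called and dispersion was estimated by gene, so these rates cannot be taken as those of the calls here. DESeq2 (1.42.0), limma-voom and other settings were alternatives.

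The members and lists were chosen with earlier results of these data known. Named genes are the members, the other network genes and MLX targets, in each list the 3 called genes with the largest change without overlap and up to 2 against the list's direction, the nearest called neighbours, the 5 genes most like Myc, the check of the labels and the markers; some items that this rule names are not reported here. Trrap and Sin3a were named after their values were seen, as were the partners that share exons.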

Additional observations from a re-analysis of the deposited data

How the results depend on the processing

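Over 17 alternatives to the processing, 152 values of the tested members were recomputed, of which 146 kept their side of the threshold, 4 lost it and 2 gained it; 0 called values changed sign, while that of Mxd1, which was not called, did so under 2 alternatives. Mycl could not be tested with at least 10 counts in every library, since it was at the floor in J110. With glmTreat for a fold change above 1.5, 6336 genes were called in place of 9566, 4 of the members in place of 7 (Mxi1, Mnt and Mga were lost), 3 MYC coactivators in place of 8, 2 MXD corepressors in place of 8, 2 MGA partners in place of 7, 2 turnover genes in place of 10 and 10 activated targets in place of 23, as a larger change was asked for. Leaving out each library in turn gave from 6 to 8 members called. Library size only, without TMM, moved the median over all genes from -0.014 to 0.16 (log2), a shift that applies to each gene. By the Pearson correlation 0 of the 5 genes nearest to Myc by distance were among the 5 most like it. Same-numbered libraries of the lines were not treated as paired, since no label says whether they shared a batch. Correlations of their deviations ran from 0.0118 to 0.0268, each the highest for its number, so this check cannot show that the libraries were unpaired. With the replicate number as a block 7 members and 9481 genes were called, and no call changed among the members, the related network genes, the MLX targets and the genes named from the lists by rule; calls of neighbours and of genes like Myc were not compared. Without genes that share exons with a gene holding at least 50% of their counts, an alternative chosen after seeing the data, 5 of 7 members were called (2 higher and 3 lower). Depth limits Mycn, Mlxipl and Gas1, which had no count, and the low J110 levels of Mycl and Cdkn2b.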
